A study of Rattus norvegicus with 6 samples.

Results

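The kinesin, dynein and dynactin genes of cultured rat retinal ganglion cells are described here, across cultures given Chrdl1 or its vehicle. They were taken by symbol from the deposited expression table: every name beginning with Kif or Klc and a digit, Dctn and a digit, Dync, Dynll, Dynlrb or Dynlt. This gave 53 of the 17366 listed transcripts, with 34 kinesin and kinesin light chain names, 13 dynein names and 6 dynactin names. One of the kinesin names, Kif1bp, encodes a kinesin-binding protein and not a motor, and was kept because the rule matches it. Kif1a, Kif21a and Klc2 were not analysed here. The rule uses names and no measured value.

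Retinal ganglion cells are the neurons whose axons form the optic nerve. The study asked how they respond to Chrdl1 (chordin-like 1), a secreted antagonist of bone morphogenetic protein signalling. Cells came from Sprague Dawley rats labelled P5 and were cultured for 10 days. They then received either Chrdl1 at 1 µg/ml or the vehicle, 0.1% BSA with 4 mM HCl, and 12 h later RNA was taken for stranded mRNA sequencing, giving 3 libraries per group. Every sample title carries 1 of 3 numeric codes, and 1 library of each group shares each code; in rising order of the code these are called pairs A, B and C. What the code stands for is not said in the labels, nor whether libraries of a group are separate cultures or animals, so p-values measure only the spread between these libraries. The extraction text names visual cortex where all other labels name ganglion cell cultures. In the data, 10 listed ganglion cell markers had a summed level of 2207 to 2631 FPKM. Their means differed widely, with Sncg at 948 FPKM and Nefl at 597 FPKM. Rbpms was at 88.2 FPKM, Isl1 at 41.9 FPKM, Pou4f2 at 30.5 FPKM and Pou4f3 at 10.3 FPKM. Of 4 astrocyte genes, Gfap reached at most 1.24 FPKM, Aldh1l1 0.150 FPKM, Aqp4 0.017 FPKM and Slc1a3, which other glia also express, 5.95 FPKM. FPKM values are fragment numbers scaled to transcript length and to the reads of a library, so levels can be compared between genes.

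Most axonal proteins are made in the cell body, and motors carry vesicles, mitochondria and cytoskeletal parts along microtubules between the cell body and the synapse. Most kinesins walk towards the microtubule plus end, outward in an axon, and cytoplasmic dynein with its activator complex dynactin walks back towards the cell body. Ganglion cells depend on both directions, since their axons run from the retina to the brain, and target-derived neurotrophin signals travel back by dynein.

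The 250 bases before the RefSeq start of 4 of these genes are shown, because they belong to members the results turn on. These are the most abundant member (Klc1), kinesins that differed between the title codes (Kif5c, Kif3a) and the dynein heavy chain (Dync1h1). They are from RefSeq, build GRCr8, plus strand, 5′ to 3′. Capitals mark the GC box GGGCGG and the cyclic AMP response element TGACGTCA, on either strand.
Kif5c, chr3:54441057-54441306: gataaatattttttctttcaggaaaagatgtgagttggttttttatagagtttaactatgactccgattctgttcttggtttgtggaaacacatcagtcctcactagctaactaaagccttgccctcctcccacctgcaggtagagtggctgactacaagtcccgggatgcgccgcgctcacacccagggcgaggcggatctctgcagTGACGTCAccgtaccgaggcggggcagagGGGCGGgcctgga
Klc1, chr6:136644350-136644599: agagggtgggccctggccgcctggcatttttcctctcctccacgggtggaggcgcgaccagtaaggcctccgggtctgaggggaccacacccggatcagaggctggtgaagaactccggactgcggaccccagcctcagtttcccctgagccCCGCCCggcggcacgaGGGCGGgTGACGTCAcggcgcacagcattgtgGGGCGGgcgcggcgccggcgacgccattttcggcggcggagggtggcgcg
Kif3a, chr10:38226520-38226769: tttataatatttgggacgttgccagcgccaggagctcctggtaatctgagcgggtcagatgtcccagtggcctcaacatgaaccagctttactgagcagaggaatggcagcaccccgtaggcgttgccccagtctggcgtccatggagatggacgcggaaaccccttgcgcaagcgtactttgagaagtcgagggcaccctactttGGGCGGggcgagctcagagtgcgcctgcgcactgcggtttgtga
Dync1h1, chr6:135436228-135436477: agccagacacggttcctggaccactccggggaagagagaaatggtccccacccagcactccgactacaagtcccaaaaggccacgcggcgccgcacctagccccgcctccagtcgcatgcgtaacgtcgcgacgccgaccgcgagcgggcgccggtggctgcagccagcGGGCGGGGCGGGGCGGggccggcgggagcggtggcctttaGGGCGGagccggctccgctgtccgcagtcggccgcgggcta

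The windows of Klc1 and Dync1h1 were GC-rich, at 71.6% and 73.2% G and C, against 58.4% for Kif3a and 52.4% for Kif5c and a median of 52.0% over all 27457 promoters of the table. Klc1 had 3 GC boxes and Dync1h1 had 4, some of them overlapping, while Kif3a and Kif5c each had 1. The response element TGACGTCA stood in the Klc1 and Kif5c windows, and was in 1.7% of all promoters. Of the 53 members, 41 had an entry, 30 of them among the genes tested below. GGGCGG was found in 22 of those 30, against 32.4% of all promoters. The 30 had passed a filter on expression level, and the set of all promoters had not. The 41 member windows had a median of 61.6% G and C, against 52.0% over all promoters. CCAAT was in 12 of the 30 (34.3% of all), TATAAA in 4 (13.1% of all), TGACGTCA in 3 and the NRF1 motif in 1 (0.849% of all). Both strands were searched, and a match is a description of the letters only.

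Some of the motor genes were among the more abundant transcripts of these cultures. A mean of at least 100 FPKM was reached by 9 of the 53 members (17%), against 2.88% of all transcripts. All transcripts include 3195 that were at 0 in all 6 libraries. Of the 9, Kif5a and Kif5c encode motor heavy chains, and the others encode light chains or dynactin subunits. A mean of at least 10 FPKM was reached by 31 members. The list consists of genes that neurons are known to use, and no test was made of this share. The 53 members together summed to 2549 to 2953 FPKM per library. At the low end Kif2b was listed at 0 in all 6 libraries, where 3 reads would allow up to 0.0931 FPKM in the shallowest. Neighbours in the order of levels rarely differed beyond their spread: of 52 neighbouring pairs, 3 had ranges that did not overlap, namely Klc1 over Kif5a, Dynlrb1 over Dynll2, and Dync1i1 over Kif2a.

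**Figure D1:**
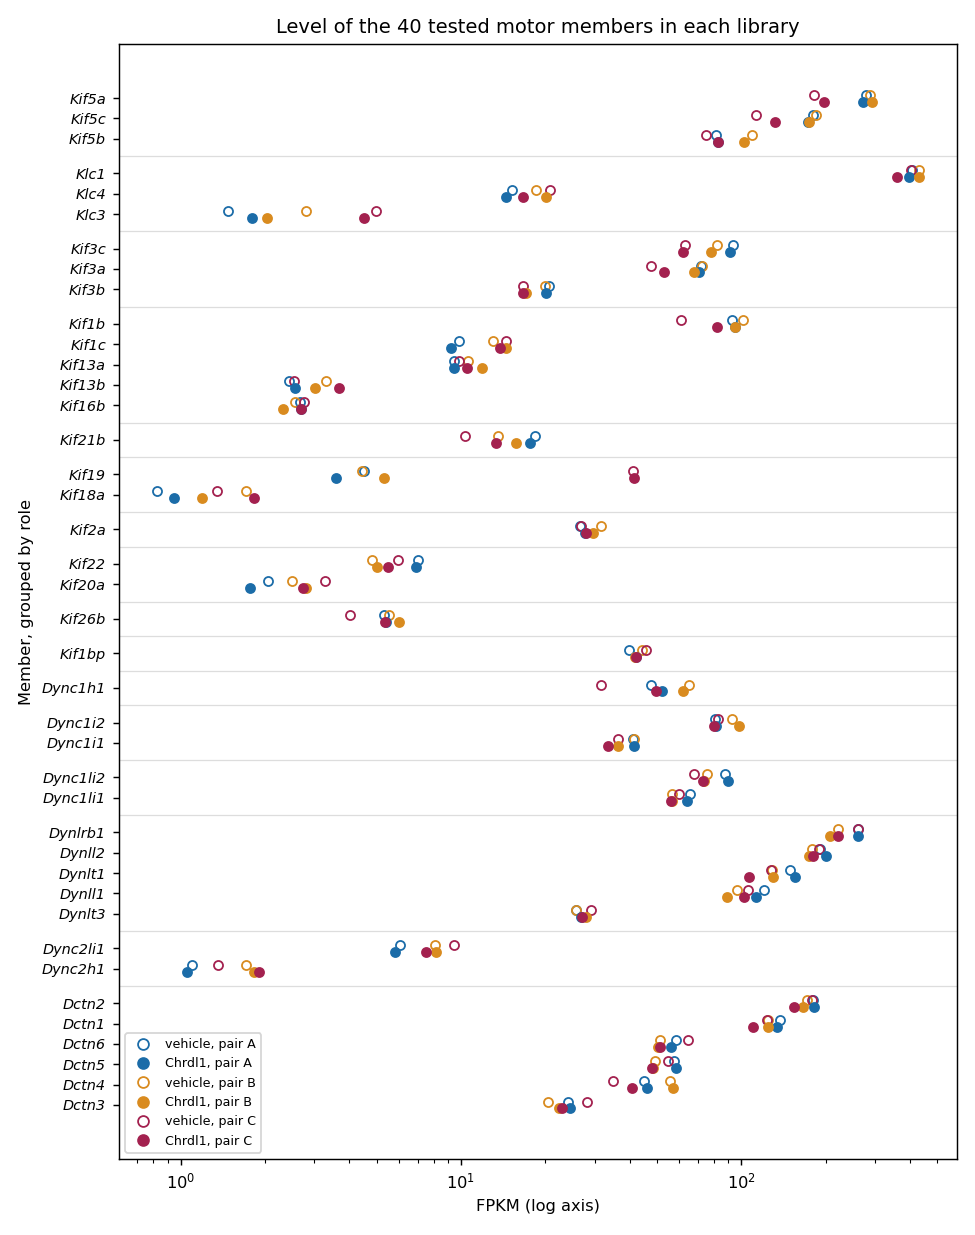
Levels of the 40 members that passed the filter for testing, grouped by role, in FPKM on a log axis; each point is 1 library, open for vehicle and filled for Chrdl1, coloured by pair. Klc1 is highest in all 6 libraries, and Kif19 is the member whose pair C libraries stand farthest from the rest, at 41.0 and 41.4 FPKM against 3.59 to 5.30 FPKM.

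Kinesin-1, the motor of many fast-moving cargoes and of slowly moving neurofilaments, is built from heavy chains (Kif5a, Kif5b, Kif5c) and light chains (Klc genes), which bind cargo. The light chain Klc1 (rn6 6:136330448-136363672, plus strand) was the highest member, at 405.8, 430.7 and 403.2 FPKM with vehicle (pair A, B, C in that order, here and below) and 397.6, 432.0 and 358.4 FPKM with Chrdl1. Its mean put it at rank 41 of all transcripts, and the groups overlapped. Klc4 was at 14.5 to 20.7 FPKM and Klc3 at 1.48 to 4.98 FPKM, and the order Klc1 over Klc4 over Klc3 held in 6 of 6 libraries.

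The heavy chain Kif5a, the form that is found mainly in neurons (rn6 7:70515832-70552897, minus strand), stood at 279.2, 287.0 and 181.8 FPKM in vehicle and 272.4, 293.1 and 197.9 FPKM in Chrdl1. Kif5c, also a neuronal form (rn6 3:35014187-35254233, plus strand), was at 179.8, 184.9 and 112.5 FPKM in vehicle and 173.1, 174.7 and 132.1 FPKM in Chrdl1. Both were lowest in the 2 libraries of pair C, whichever treatment they had. Kif5b, the form made in most cell types (rn6 17:54181847-54212079, plus strand), was at 81.4, 109.2 and 74.9 FPKM in vehicle and 82.5, 101.9 and 82.9 FPKM in Chrdl1. The order Kif5a over Kif5c over Kif5b held in 6 of 6 libraries.

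Of kinesin-2, which carries vesicles in axons and cargo in cilia, the accessory form Kif3c was highest, at 93.1, 82.1 and 63.2 FPKM in vehicle and 91.1, 78.3 and 62.01 FPKM in Chrdl1. Kif3a, the shared partner of Kif3b and Kif3c, was at 72.0, 72.5 and 47.6 FPKM in vehicle and 70.6, 68.1 and 52.8 FPKM in Chrdl1. Kif3b ranged from 16.6 to 20.6 FPKM. The order of these 3 genes was the same in 6 of 6 libraries, and pair C was again lowest.

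Among the kinesin-3 genes, motors of synaptic vesicle precursors and mitochondria, Kif1b stood highest, at 93.1, 101.1 and 60.97 FPKM in vehicle and 94.96, 94.9 and 82.1 FPKM in Chrdl1. Kif1c was at 9.23 to 14.5 FPKM, Kif13a at 9.42 to 11.9 FPKM, Kif13b at 2.44 to 3.67 FPKM and Kif16b at 2.32 to 2.76 FPKM. Of the remaining kinesins, Kif2a, which takes microtubules apart at their ends, was at 26.6 to 31.5 FPKM, and the kinesin-4 gene Kif21b at 10.3 to 18.4 FPKM. Kif1bp lay between 39.8 and 45.7 FPKM. Kif26b was at 4.02 to 6.01 FPKM.

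The kinesins grouped here as mitotic (Kif11, Kif15, Kif20a, Kif20b, Kif22 and Kif23) were low, and 2 of 6, Kif20a and Kif22, reached the level needed for testing. Kif18a, Kif18b, Kif2b and Kif2c were grouped by family as kinesin-8 and kinesin-13 and are not among the 6. Of these Kif18a was tested, at 0.822 to 1.83 FPKM. Kif22 was at 4.81 to 7.01 FPKM and Kif20a at 1.77 to 3.27 FPKM. Of 19 cell division genes listed for comparison, 18 were in the table, none exceeded 1.92 FPKM in any library, and 12 stayed under 1 FPKM throughout.

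Cytoplasmic dynein 1 has a motor heavy chain, intermediate and light intermediate chains that bind dynactin and adaptors, and 3 kinds of light chain. The heavy chain Dync1h1 (rn6 6:134958854-135085769, plus strand), whose transcript of 14196 bases was the longest of the members, stood at 47.7, 64.9 and 31.5 FPKM in vehicle and 52.3, 62.03 and 49.5 FPKM in Chrdl1. The lowest value was the vehicle library of pair C. The intermediate chain Dync1i2, made widely, was at 79.7 to 98.5 FPKM, and the neuronal form Dync1i1 at 33.4 to 41.4 FPKM. The light intermediate chain Dync1li2 was at 67.8 to 89.7 FPKM and Dync1li1 at 56.0 to 65.6 FPKM. The light chains were the most abundant dynein transcripts, with Dynlrb1 at 208.0 to 262.1 FPKM, Dynll2 at 174.4 to 201.3 FPKM, Dynlt1 at 106.6 to 155.4 FPKM and Dynll1 at 88.9 to 120.5 FPKM. Dynlt3 was lower, at 25.7 to 29.0 FPKM, and Dynlrb2 reached at most 0.392 FPKM. In 6 of 6 libraries Dync1i2 exceeded Dync1i1, Dync1li2 exceeded Dync1li1 and Dynll2 exceeded Dynll1.

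Dynein 2, the motor that returns cargo in cilia, was low. Its light intermediate chain Dync2li1 was at 5.81 to 9.47 FPKM, and its heavy chain Dync2h1 at 1.05 to 1.91 FPKM. Dynactin, which makes dynein move over long distances, was present throughout. Dctn2, a subunit of the shoulder, was at 180.8, 171.9 and 179.3 FPKM in vehicle and 181.1, 166.6 and 153.7 FPKM in Chrdl1. Dctn1, the arm that binds microtubules and the dynein intermediate chain, was at 110.6 to 138.0 FPKM. The others lay lower, with Dctn6 at 50.6 to 64.5 FPKM, Dctn5 at 48.2 to 58.5 FPKM, Dctn4 at 35.0 to 57.0 FPKM and Dctn3 at 20.5 to 28.3 FPKM. Dctn2 and Kif5a are neighbours on chromosome 7 that point away from each other, with 3126 bases between them on rn6.

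The genes of the adaptors that link motors to cargo were also present. Of 36 listed adaptors and regulators, 30 were in the table and 26 were tested, and the 4 highest means were those of Mapk8ip1 (279 FPKM), a kinesin light chain partner, Clstn1 (163 FPKM), which links kinesin-1 to vesicles, Arl8a (162 FPKM), which recruits kinesins to lysosomes, and Pafah1b1 (159 FPKM), the dynein regulator. The actin-like core of dynactin was tested in 6 of 6 genes, led by Actr1a, its filament subunit, at 134 FPKM, and the capping subunit Capzb at 100.02 FPKM.

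No motor gene passed the threshold between Chrdl1 and vehicle. Over all tested transcripts, those with at least 1 FPKM in at least 3 libraries, limma (log2(FPKM + 1), Benjamini-Hochberg adjustment) called 0 of 10390 (0%) at an adjusted p under 0.05, and 18 (0.173%) had an unadjusted p under 0.05. Of the 53 members 40 passed the filter; the other 13 were at most at 1.315 FPKM and 121 reads in any library. Of the 40, 0 were called and 0 had an unadjusted p under 0.05. The log2 differences, Chrdl1 minus vehicle, ran from -0.13 to 0.23, and their median was -0.018, beside -0.028 over all tested transcripts. There were 17 above 0 and 23 below (42.5% above, against 38.4% of all tested). Quantile normalization gave 26 above and 14 below, and centring each library on its median gave 20 and 20. The median half-width of the members' 95% interval was 0.36 on the log2 scale. With the title code as a replicate block, limma also called 0 members and 0 transcripts (0%), and 1 member, Dync1h1, and 535 transcripts (5.15%) had an unadjusted p under 0.05; the median half-width for the members was 0.16.

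**Figure D2:**
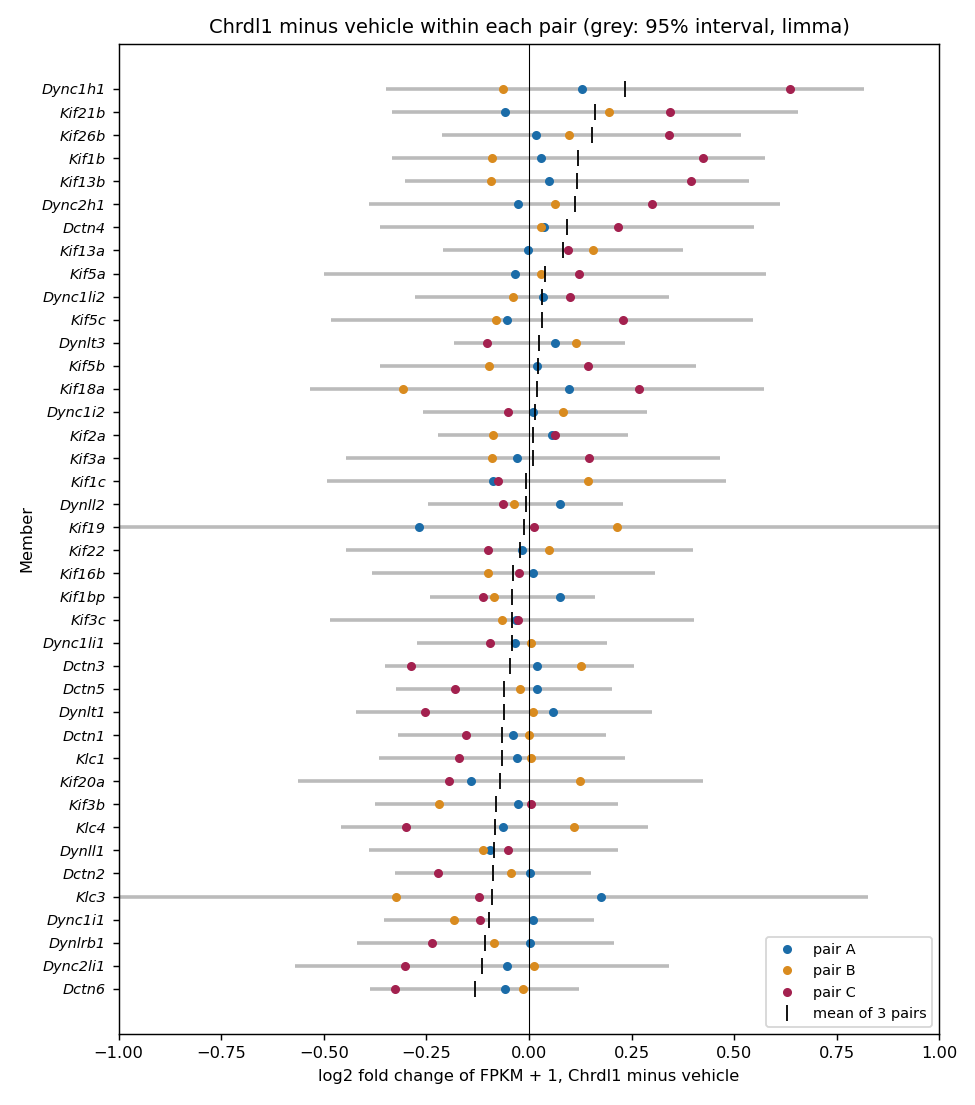
Log2 difference between Chrdl1 and vehicle (log2(FPKM + 1) scale) for the 40 tested members, with the limma 95% interval as a grey bar, the mean as a tick and the 3 same-code pairs as points. The intervals are of the fit without the replicate block. All cross 0, and those of Kif19 and Klc3 run past the axis. With the block these 2 were -0.23 to 0.21 and -0.36 to 0.18, and that of Dync1h1 was 0.0094 to 0.46.

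The highest and lowest differences did not pass the threshold in the fits with all 6 libraries. Dync1h1 had the highest, 0.23 ± 0.25 (log2, SE, n = 3 per group, 95% interval -0.35 to 0.82). Its pair differences were 0.13, -0.064 and 0.64, so it was higher in 2 of 3 pairs. With the replicate block the SE was 0.10 and limma's adjusted p = 0.872. With the block and without both libraries of pair B the difference was 0.38 and limma's adjusted p = 0.0307. That fit rests on pairs A and C alone, with 2 libraries per group. In the other fits that held the block limma's adjusted p was 0.635 to 0.985. Leaving out pair C's vehicle library gave -0.033, and leaving out both pair C libraries gave 0.033. Kif21b followed with 0.16 ± 0.21, Kif26b with 0.15 ± 0.15 and Kif1b with 0.12 ± 0.19; leaving out pair C's vehicle library gave -0.031 for Kif21b, 0.034 for Kif26b and -0.10 for Kif1b. At the other end were Dctn6 with -0.13 ± 0.11, Dynlrb1 with -0.11 ± 0.13, Dync1i1 with -0.097 ± 0.11 and Dctn2 with -0.088 ± 0.10. With the replicate block the SE of these genes, and of Kif21b, Kif26b and Kif1b, was 0.067 to 0.11. Leaving out 1 library in turn gave -0.22 (vehicle B) to -0.054 (vehicle C) for Dctn6, -0.20 (Chrdl1 A) to -0.037 (Chrdl1 B) for Dynlrb1, -0.18 (Chrdl1 A) to -0.027 (Chrdl1 C) for Dync1i1 and -0.15 (Chrdl1 A) to -0.029 (Chrdl1 C) for Dctn2.

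The kinesin-1 genes did not differ past the threshold either. Kif5a averaged 249 ± 58.6 FPKM in vehicle and 254 ± 50.1 FPKM in Chrdl1 (SD, n = 3), a log2 difference of 0.039 ± 0.23 with an interval of -0.50 to 0.58. Kif5c differed by 0.031 ± 0.22, Kif5b by 0.021 ± 0.16 and Klc1 by -0.065 ± 0.13. These SEs are of the fit without the replicate block and hold the spread between pairs. With the block the SE was 0.065 for Kif5a (interval -0.10 to 0.18), 0.073 for Kif5c, 0.066 for Kif5b and 0.070 for Klc1. Their spread lay mostly between pairs, and the sign of each of these 4 differences turned in at least 1 setting tried.

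The direction within pairs was counted for the members beside all tested transcripts. Chrdl1 was above vehicle in all 3 pairs for 2 members, Dctn4 and Kif26b, where 7.55% of all tested transcripts were. It was below in all 3 pairs for 4 members, Dctn1, Dynll1, Kif3c and Dctn6, where 19.5% were. The libraries of the 2 groups did not overlap for 0 members, where 2.44% of transcripts did not. The adaptors had 12 of 26 above 0 and 14 below, with a median of -0.0049, and 0 called. The dynactin core had 3 of 6 above and 3 below, with a median of -0.027, and 0 called.

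Shares of paralogues differed by at most 1.64 percentage points between the groups. Kif5a made up 50.1% ± 1.36 of the summed FPKM of the 3 Kif5 genes in vehicle and 50.3% ± 2.08 in Chrdl1 (SD, n = 3), a difference of 0.225 percentage points (exact permutation p = 1). Klc1 made up 95.1% ± 1.03 and 95.2% ± 0.819 of the sum of Klc1, Klc3 and Klc4 (exact permutation p = 0.9). Kif3a was 39.2% ± 2.11 and 40.2% ± 1.43 of the Kif3 sum, and higher with Chrdl1 in 3 of 3 pairs (exact permutation p = 0.4, exact sign-flip p = 0.25). Its pair differences were 0.019, 0.13 and 2.78 percentage points, so pair C made up most of the difference. Dync1i1 was 31.7% ± 1.80 and 30.1% ± 3.46 of its pair with Dync1i2, and lower in 3 of 3 pairs (exact permutation p = 0.4, exact sign-flip p = 0.25). Its pair differences were -0.0052, -3.88 and -1.03 percentage points, so pair A hardly differed. Dync1li1 was 44.1% ± 2.37 and 42.9% ± 1.04 of the light intermediate chain sum (exact permutation p = 0.6), and Dynll1 was 36.5% ± 1.95 and 35.3% ± 1.30 of the Dynll sum (exact permutation p = 0.5). These 6 two-sided tests had Benjamini-Hochberg adjusted values of 0.9 to 1; with 3 libraries per group the smallest permutation p is 0.1, and with 3 pairs the smallest sign-flip p is 0.25, so neither test could reach 0.05.

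**Figure D3:**
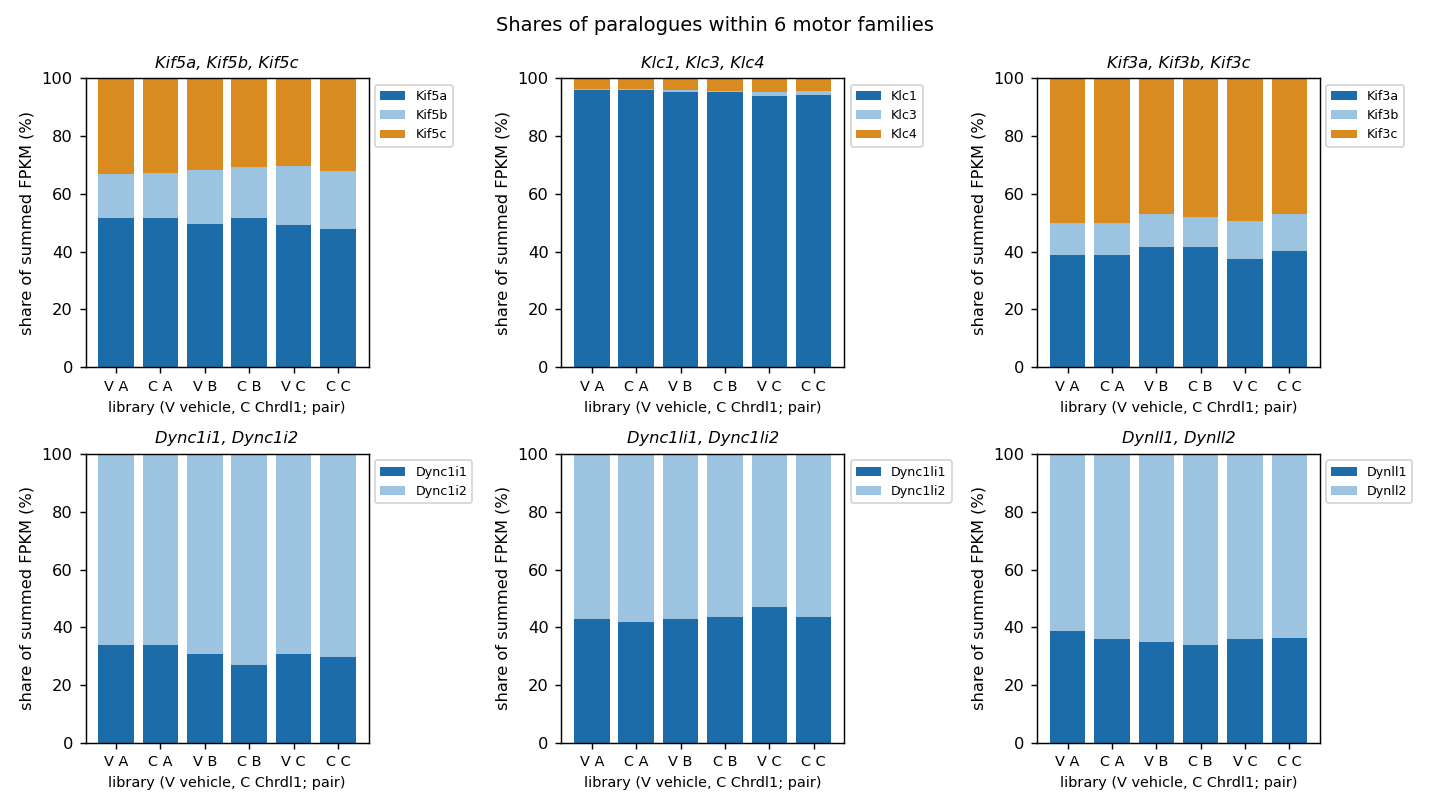
Share of each paralogue in the summed FPKM of its family, in percent, for 6 families in each library; V is vehicle and C is Chrdl1, followed by the pair. Kif5a takes 47.9% to 51.7% and Klc1 94.0% to 96.1% in all 6 libraries.

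More members passed the test between the title codes than between treatments. limma's F test of the codes, with treatment in the model, called 20 of the 40 tested members (50%) at a Benjamini-Hochberg adjusted p under 0.05, against 47.4% of all tested transcripts, so the share was near the background. With limma voom on recovered reads 29 were called (72.5%, against 54.5% of all) and with median centring 27 (67.5%, against 50.2%). In bulk RNA, fewer cells of a type and less RNA per cell cannot be told apart. In both pair C libraries 12 of 40 members (30%) were below all 4 other libraries, where 14.7% of tested transcripts were. They were the kinesins Kif5a, Kif5c, Kif3a, Kif3b, Kif3c, Kif1b and Kif21b, the dynein subunits Dynlt1, Dync1li2 and Dync1i1 and the dynactin subunits Dctn1 and Dctn4. Their pair C means were 67.1% to 89.6% of the mean of pairs A and B. Of these 12 members, 9 were called between codes. The 12 were picked on the same values that the F test used, so this count is no separate support. The difference between the 2 shares was not tested. After centring each library on its median, 18 members, the 12 among them, were below in pair C (23.6% of all tested), and after quantile normalization 14, again with the 12 (26.0% of all tested). Above all 4 others were 3 members (7.5%), Kif19, Klc3 and Kif16b, where 23.4% of transcripts were; with quantile normalization Kif16b was below the others instead. The median log2 difference of pair C from the mean of pairs A and B was -0.058 for the members and 0.050 for all tested transcripts. Over all tested transcripts this median went from 0.14 under 1000 bases of length to -0.028 at 4000 bases or more. For the members it went from 0.031 to -0.16 between the same classes. Of the 40 members 13 had at least 4000 bases, and of the 10390 tested transcripts 1611 did. The part of length in the pair C shares was not tested. Low levels in pair C were not particular to the motors. Of the 30 adaptors and regulators found, 12 were below all 4 other libraries in pair C and 4 were above. Among the 6 dynactin core genes 0 were below and 1 was above.

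The members with the smallest p between codes, after Kif19, were 3 kinesins that were low in pair C and 1 light chain that was high. The p-values here are of limma's F test of any difference among the 3 codes. The difference of pair C from the mean of pairs A and B was not tested by itself. Kif5a in pair C was 67.1% of the mean of pairs A and B (log2 difference -0.57, limma F test adjusted p = 1.09e-04). Kif3c was at 72.6% (-0.45, limma adjusted p = 2.45e-04) and Kif5c at 68.7% (-0.54, limma adjusted p = 4.25e-04). Klc3 was 2.33-fold higher, at 4.976 and 4.496 FPKM against 1.48 to 2.81 FPKM, which rest on 56 to 204 reads per library (limma adjusted p = 2.91e-04). Dync1h1 was at 71.4% and Kif3a at 71.0%, while Dctn2, beside Kif5a on the chromosome, was at 95.1%.

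Kif19, a kinesin-8 known for shortening microtubules at the tips of cilia, had the smallest p between codes of all members (limma adjusted p = 1.43e-09) and, by the size of its rise in pair C, ranked 17th of 10390 transcripts. It was at 4.52 and 4.42 FPKM in the vehicle libraries of pairs A and B and at 3.59 and 5.30 FPKM in the Chrdl1 libraries of those pairs. In pair C it was at 41.0 FPKM with vehicle and 41.4 FPKM with Chrdl1. Over both treatments the mean of pair C was 9.24-fold that of pairs A and B, on 222 to 3757 reads per library. The gene lies on rn6 10:103308392-103334466, plus strand. Its 3′ end overlaps Btbd17 on the other strand by 415 bases, and Btbd17 was at 1.78 to 3.61 FPKM in pairs A and B and at 7.81 and 8.78 FPKM in pair C. Whether the authors' counting used the strand is not given in the sources used here, so reads of the overlap cannot be assigned.

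**Figure D4:**
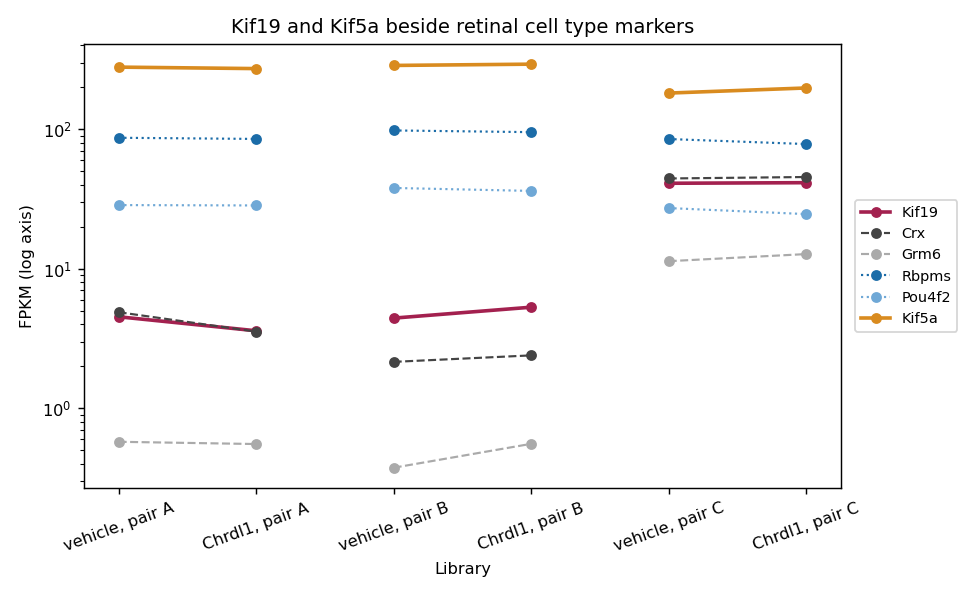
Kif19, Kif5a and markers of photoreceptors and bipolar cells (Crx, Grm6) and ganglion cells (Rbpms, Pou4f2), in FPKM on a log axis; each point is 1 library and lines join the libraries of a pair. Kif19, Crx and Grm6 are high in both libraries of pair C and low in the other 4.

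Markers of other retinal cells moved with the codes as well. Crx, a transcription factor of photoreceptors and bipolar cells, was at 44.4 and 45.5 FPKM in pair C against 2.15 to 4.88 FPKM in the other 4 libraries. The photoreceptor gene Rcvrn was at 3.03 and 2.60 FPKM in pair C against 0.160 to 0.350 FPKM, and Sag reached at most 0.308 FPKM. Grm6, the glutamate receptor of ON bipolar cells, was at 11.3 and 12.7 FPKM in pair C against 0.374 to 0.574 FPKM. Of the 10 ganglion cell markers 6 were below in pair C, where 14.7% of all tested transcripts were. Of the same 10, 1, Thy1, was above, where 23.4% of all tested were. Microglia markers summed to 121 to 170 FPKM in pairs A and C and 8.39 to 15.6 FPKM in pair B. Stromal and endothelial markers summed to 17.7 to 28.2 FPKM in pairs A and C and 2.27 to 4.29 FPKM in pair B. Of 4 astrocyte markers, Gfap (1.24 and 1.16 FPKM against 0.065 to 0.153) and Slc1a3 (5.10 and 5.95 FPKM against 0.417 to 1.41) were above in pair C. Amacrine markers summed to 62.2 to 78.1 FPKM over the 6 libraries, most of it Gad2; of the 4, Gad1 (5.59 and 4.90 FPKM against 1.64 to 1.95) and Slc32a1 (2.88 and 2.02 FPKM against 0.276 to 0.703) were above in pair C. Both Muller glia markers were above in pair C, Rlbp1 at 0.847 and 0.895 FPKM against 0.139 to 0.218 and Glul at 82.5 and 76.8 FPKM against 51.5 to 71.0. The part of these cells in the levels of Kif19, Kif5a and the other members was not tested.

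Transcript length moved with the Chrdl1 difference in pair C. The 13 tested members of at least 4000 bases had a median log2 difference of 0.10 in pair C, with 10 above 0 and 3 below, and Dync1h1, Kif1b and Kif21b were among them. The 5 members under 1000 bases had a median of -0.25, with 0 of 5 above 0. The 6 members of 1000 to 2000 bases were at -0.15 and the 16 of 2000 to 4000 bases at -0.056. All tested transcripts had the same order in pair C, at -0.19, -0.12, -0.043 and 0.092 from the shortest class to the longest (1087, 3642, 4050 and 1611 transcripts). In pairs A and B no class of members had a median beyond -0.039 to 0.011. The part of length in the members' differences was not tested.

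**Figure D5:**
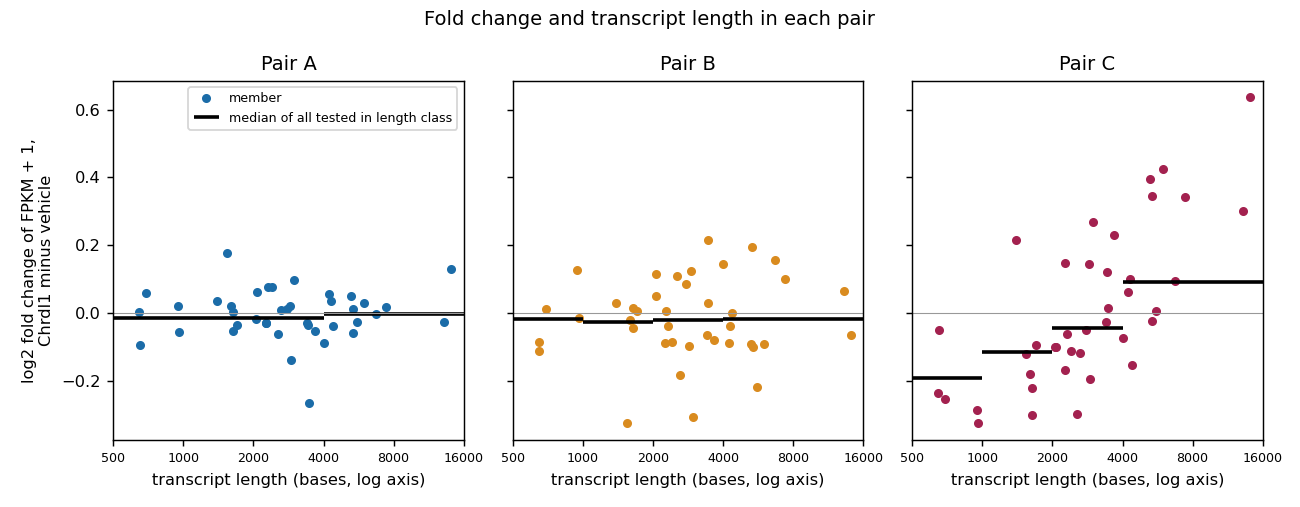
Log2 difference between Chrdl1 and vehicle (log2(FPKM + 1) scale) against transcript length in bases (log axis), with 1 panel per pair; points are the 40 tested members and black bars the median of all tested transcripts in a length class. In pair C the bars go from -0.19 to 0.092 from the shortest class to the longest and the members' medians from -0.25 to 0.10, while in pairs A and B the bars stay near 0.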

How the data were processed

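RNA from 6 libraries (3 vehicle, 3 Chrdl1) was prepared with an RNeasy kit and a TruSeq stranded mRNA kit, per the labels' protocols. STAR 2.4.0k, HOMER 4.8.3, FastQC and the rn6 build are named in the submitters' processing notes. Not given in the sources used here are the annotation release, read filters, strand setting and handling of multi-mapping reads.

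The authors deposited 1 table of FPKM values with each transcript's length; coordinates are those of the table. Samples were grouped by title.

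Read depth was recovered from FPKM and length: 98.9% to 100.0% of judged values above 0 (rounding worth under 0.25 read) were whole reads, within 0.0005 FPKM of rounding plus 0.01 read, where 5.74% to 8.74% would be by chance. Vehicle totals (pair A, B, C) were 24482400, 14546600 and 26551700 reads, and Chrdl1 totals 23343400, 22870500 and 24198700; 62.7% to 65.8% fell on listed transcripts. The floor of 3 reads covers counting error only.

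limma 3.58.1 in R 4.3.3 (lmFit, eBayes with trend, two-sided) was fitted to log2(FPKM + 1), pseudocount 1, on 10390 transcripts that reached FPKM 1 in 3 or more libraries. A call needed an adjusted p (Benjamini-Hochberg) under 0.05. Fold changes on the log2(FPKM + 1) scale understate those of low genes. The codes pair the libraries: deviations from the group means correlated at 0.82, 0.86 and 0.84 between same-code libraries, and negatively between others. Shares were tested with exact permutation and sign-flip tests in Python 3.11.15 with numpy 2.4.6. The fits were tested on simulated data. For the fit without the replicate block the simulation held no difference between codes, unlike these data, so it does not show how that fit does here. Alternatives covered pseudocount, filter, normalization, trend, recovered reads with voom, left-out libraries and the replicate block. Named with values were cargo motors and dynactin, other members above a mean of 5 FPKM, the 3 highest and 3 lowest by p in the fits without and with the block, and the 5 with the smallest p between codes; context lists gave up to 4 genes. Promoters came from RefSeq build GRCr8. The members and lists were chosen with earlier results of these data known. Some listed marker genes are not reported here.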

Additional observations from a re-analysis of the deposited data

How the results depend on the processing

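The 5 members with the smallest p between title codes kept their direction and call in each alternative that gave a pair C difference. Klc3 fell out under the filter at 5 FPKM. Without both libraries of a pair the pair C difference was not computed. The calls of these 5 members in those fits are not given here. The count of members called between codes (20) was 13 without a filter (25% of 52, 28.7% of all), 10 without both libraries of pair A (25%, against 27.2% of all), 29 with voom (72.5%, 54.5%), 27 with median centring (67.5%, 50.2%), and 11 to 26 leaving out 1 library. The members' median Chrdl1 difference became 0.021 with quantile normalization, with or without the replicate block. The block alone changed no call; with the code pairing in the model, transcripts called (0) became 2 with voom, 25 without pair A and 34 without pair B, where 1 member, Dync1h1, was called (0.38, limma adjusted p = 0.0307; 0.635 to 0.985 in the other fits with the block). These combinations with the block, and the pair C counts after rescaling, were chosen after seeing the data. The fits without a pair rest on 2 libraries per group. Klc1 became 0.033 with quantile normalization, with or without the block. Without both libraries of pair C, with or without the block, Kif5a became -0.0023, Kif5b -0.040, Kif5c -0.068 and Kif1b -0.031. Leaving out 1 library gave -0.17 to 0.21 for Kif5a, -0.088 to 0.18 for Kif5b, -0.20 to 0.16 for Kif5c, -0.13 to 0.0049 for Klc1, -0.10 to 0.26 for Kif1b, -0.075 to 0.25 for Dctn4, -0.033 to 0.48 for Dync1h1 and -0.031 to 0.36 for Kif21b. It gave -0.411 to 1.42 points for the Kif5a share, -0.462 to 0.56 for Klc1 and -2.01 to 0.0863 for Dync1li1. The cause was not tested. The planned Kif1a share was not run. Depth limits Klc3 and the members under 2 FPKM most.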
